A study of Homo sapiens with 3 samples.

Results

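The genes described here are SLC2A1, HK1, HK2, PFKFB3, PFKFB4, ALDOA, ALDOC, PGK1, ENO1 and LDHA. They encode a glucose transporter, enzymes on the route from glucose to lactate and, for PFKFB3 and PFKFB4, enzymes that regulate that route. They were chosen by name, and every probe set paired with exactly 1 of these symbols was taken. That gave 10 genes with 24 probe sets, of 19775 genes and 54675 probe sets in all. RNA of MDA-MB-231, a human breast cancer cell line, was hybridised to Affymetrix HG-U133 Plus 2 arrays. There was 1 array of cells given 1 µM ERα17p, a peptide from the oestrogen receptor alpha, 1 of cells given 1 µM estradiol, and 1 of cells given 0.1% ethanol as vehicle. All 3 cultures had spent 4 h in medium with 10% serum stripped by charcoal and were then treated for 3 h. What the peptide was dissolved in is not stated in the labels.

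Glucose enters most cells through facilitative transporters such as SLC2A1 and is trapped by hexokinases as glucose phosphate. Aldolases, phosphoglycerate kinase and enolase carry it towards pyruvate, and lactate dehydrogenase reduces pyruvate to lactate. Many tumour cells make lactate even when oxygen is present, and hypoxia-inducible factors and MYC are known to raise transcription of most of these genes.

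With 1 array per group there was no test, no p-value and no replicate check, and every value below describes these 3 arrays alone. Differences in how each culture and array were handled and the treatments cannot be told apart. RNA came from whole cultures, so fewer cells with a transcript and less of it per cell cannot be told apart either. The deposited values are on a log2 scale and centred, for each probe set, on a level that no source explains, so 0 is that level and not absence. Expression levels cannot be read from them, which also prevents a check of the cell line's label against its markers. A gene's value on an array is the median of its probe sets. Its difference between arrays is the median of its probe sets' differences. That need not equal the gap between the gene's medians on those arrays, as PGK1, HK2 and ENO1 show below. A call needed a difference of 1.5-fold or more in either direction (0.585 on the log2 scale). The only view of error in a single gene's value is how far its probe sets differ among themselves, and probe sets are not replicates. That spread cannot show a difference between whole arrays, for which the values of added control RNAs are given below.

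PGK1 and SLC2A1 lay far higher in both treated cultures than in vehicle, PFKFB3 lay lower, and the other genes lay nearer to 0. The stretch of 250 bases before the transcription start is shown for these 3 genes and for LDHA, whose product ends the pathway, since they stand at the high and the low end and in between. The sequences are RefSeq's for GRCh38.p14, 5′ to 3′ on the gene's strand. Capitals mark ACGTG or GCGTG on either strand (read as CACGT or CACGC on the other), the core letters to which hypoxia-inducible factors bind. ACGTG on both strands overlaps in CACGTG, the letters of the E-box that MYC binds. Where a gene has several starts, the stretch before the outermost is shown.
PGK1, chrX:78103998-78104247, plus strand: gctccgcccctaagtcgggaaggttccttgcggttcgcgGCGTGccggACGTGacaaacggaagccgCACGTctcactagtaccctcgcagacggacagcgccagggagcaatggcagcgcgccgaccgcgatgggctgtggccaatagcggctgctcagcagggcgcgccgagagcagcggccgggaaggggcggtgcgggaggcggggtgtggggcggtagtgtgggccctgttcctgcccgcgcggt
SLC2A1, chr1:42958869-42959118, minus strand: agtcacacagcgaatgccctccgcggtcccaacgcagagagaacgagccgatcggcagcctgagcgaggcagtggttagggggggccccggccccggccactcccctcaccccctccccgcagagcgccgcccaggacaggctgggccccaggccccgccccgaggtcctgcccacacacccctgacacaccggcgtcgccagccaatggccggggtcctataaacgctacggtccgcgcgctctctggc
PFKFB3, chr10:6144671-6144920, plus strand: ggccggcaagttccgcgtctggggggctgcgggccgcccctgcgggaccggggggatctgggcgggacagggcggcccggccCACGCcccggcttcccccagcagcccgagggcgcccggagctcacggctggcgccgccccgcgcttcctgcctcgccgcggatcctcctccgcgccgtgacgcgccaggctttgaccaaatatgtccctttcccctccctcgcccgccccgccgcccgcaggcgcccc
LDHA, chr11:18394313-18394562, plus strand: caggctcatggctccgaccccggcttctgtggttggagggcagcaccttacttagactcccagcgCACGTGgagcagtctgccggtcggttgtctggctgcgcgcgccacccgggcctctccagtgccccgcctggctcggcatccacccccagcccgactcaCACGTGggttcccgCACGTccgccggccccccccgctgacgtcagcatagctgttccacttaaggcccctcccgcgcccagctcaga

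The PGK1 stretch holds 3 matches, at -211, -202 and -183 from the start, and the LDHA stretch holds 5, of which 4 belong to its 2 copies of CACGTG. The PFKFB3 stretch holds 1, GCGTG on the reverse strand at -168, and a second PFKFB3 start has 1 CACGTG before it. SLC2A1 has 0 in this window, which says only that these letters are not in these 250 bases. Of all 35116 such windows in the table, 43.2% hold ACGTG or GCGTG and 6.34% hold CACGTG. Of the 21 windows of the 10 genes, 14 (66.7%) held ACGTG or GCGTG. At 1 or more starts, 9 of the 10 genes had a match, against 47.4% of 27305 genes in the table. The 10 genes have 21 starts between them, 7 of them in HK1, and a gene with more starts has more chances of a match. A match describes the letters and does not show that a factor bound.

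PGK1, on chromosome X, encodes phosphoglycerate kinase, which makes ATP in the later part of glycolysis. Its gene median was 0.14 with ERα17p and 0.12 with estradiol, against -1.70 with vehicle. The treated arrays lay close together near the centring level, and the vehicle array lay far below it. PGK1 was 2.00 higher with ERα17p than with vehicle (3.99-fold) and 1.94 higher with estradiol than with vehicle (3.84-fold). It stood 84th from the top of 19775 genes in the ERα17p comparison and 115th in the estradiol comparison. After quantile normalisation of the 3 arrays the differences were 1.31 and 1.26.

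Of the 6 PGK1 probe sets, 5 were higher on both treated arrays than on the vehicle array, by 1.38 to 2.76 with ERα17p and by 1.31 to 2.36 with estradiol. The remaining probe set, 217383_at, was at -0.45 with ERα17p and 0.00 with estradiol, against -0.09 with vehicle. It derives from the same sequence record as 217356_s_at, which was at 0.16 with ERα17p and 0.17 with estradiol, against -2.07 with vehicle. The annotation gives both the same symbol, and which transcript each reads is not known here. Processed pseudogenes of PGK1 exist, and the values do not separate them. The spread over its probe sets, 3.13 from lowest to highest in the ERα17p comparison, compares with a median of 1.13 over the 328 genes that also had 6 probe sets.

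SLC2A1, on chromosome 1, encodes the glucose transporter found in most cell types. Its gene median was 0.06 with ERα17p and 0.11 with estradiol, against -1.32 with vehicle. As for PGK1, the vehicle array alone lay far from 0. The gene was 1.37 higher with ERα17p (2.59-fold) and 1.43 higher with estradiol (2.69-fold), which placed it 283rd and 277th from the top. Both of its probe sets gave nearly the same differences, 1.33 and 1.41 with ERα17p and 1.32 and 1.54 with estradiol. After quantile normalisation the differences of SLC2A1 were 0.89 and 0.95.

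Hexokinases commit glucose to the cell, and HK2 is the form often abundant in tumours. The 1 probe set of HK1 was at -0.20 with ERα17p and 0.00 with estradiol, against 0.35 with vehicle, with differences of -0.55 and -0.35, and it was not called. HK2 had a median of -0.10 with ERα17p and 0.18 with estradiol, against 0.36 with vehicle. Its 3 probe sets did not share a direction. In the ERα17p comparison they were at -0.63, -0.49 and 0.24, and in the estradiol comparison at -0.59, -0.01 and 0.34. The HK2 difference with estradiol was -0.01, and 0.16 after quantile normalisation, so it has no settled sign.

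PFKFB3 and PFKFB4 make and break down the fructose bisphosphate that activates phosphofructokinase, and PFKFB3 favours making it. PFKFB3 was at -0.19 with ERα17p and -0.40 with estradiol, against 0.92 with vehicle, on 1 probe set. It was the lowest of the 10 genes in both comparisons, at -1.11 with ERα17p (2.15-fold lower) and -1.31 with estradiol (2.48-fold lower), or 343rd and 157th from the bottom of all genes. Here the vehicle array lay on the high side, opposite to PGK1. PFKFB4 had a median of -0.02 with ERα17p and -0.33 with estradiol, against 0.34 with vehicle. Its difference was -0.36 with ERα17p and, past the call, -0.66 with estradiol. Its probe sets were unequal, with 228499_at at -0.74 and -1.13 and 206246_at at 0.03 and -0.20 in the ERα17p and estradiol comparisons.

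**Figure D1:**
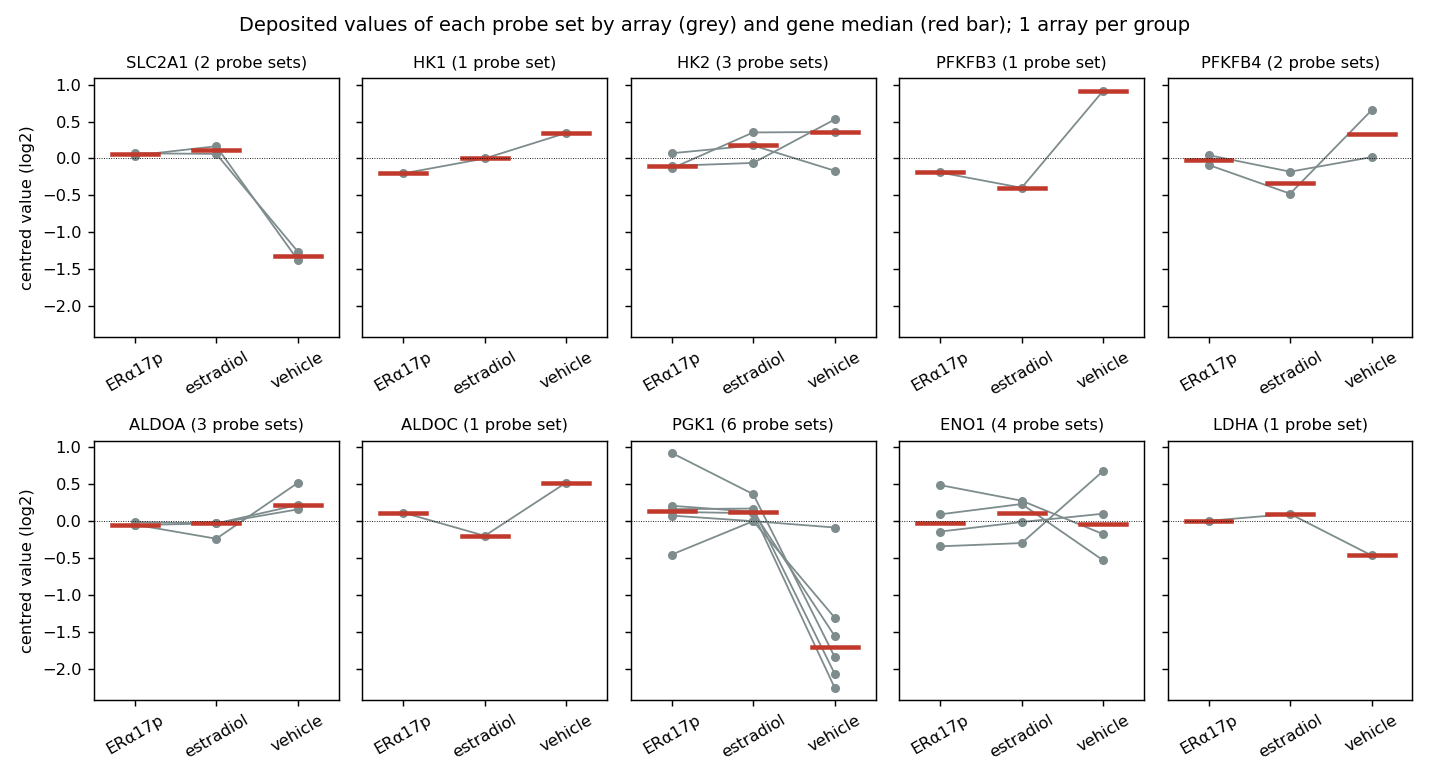
Deposited log2 values, centred per probe set, on the ERα17p, estradiol and vehicle arrays for each of the 10 genes. Each grey line is a probe set and each red bar the gene median on that array. PGK1 and SLC2A1 have vehicle medians of -1.70 and -1.32 with treated medians between 0.06 and 0.14, PFKFB3 has a vehicle value of 0.92, and the 4 ENO1 probe sets cross.

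Aldolase splits the sugar bisphosphate into trioses, ALDOA being the widespread form and ALDOC a form known best from brain. ALDOA was at -0.05 with ERα17p and -0.03 with estradiol, against 0.22 with vehicle. Its differences from vehicle were -0.23 and -0.25, and all 3 of its probe sets were below 0 in both, between -0.76 and -0.19. All 3 have the suffix _x_at, which marks probes that may bind unrelated transcripts as well. ALDOC, on 1 probe set, was at 0.12 with ERα17p and -0.20 with estradiol, against 0.52 with vehicle. Its difference from vehicle was -0.41 with ERα17p and -0.72 with estradiol, and only the estradiol difference was called.

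ENO1 encodes enolase, which makes phosphoenolpyruvate. Its median was -0.02 with ERα17p and 0.11 with estradiol, against -0.04 with vehicle, with differences of 0.19 and 0.17. That median hides 4 probe sets that went opposite ways. In the ERα17p comparison they were at 0.66, 0.62, -0.24 and -1.02, and in the estradiol comparison at 0.45, 0.76, -0.11 and -0.98. Farthest apart in the estradiol comparison were 217294_s_at and 216554_s_at, which derive from the same sequence record. The mean of the 4 was 0.01 and 0.03, and the 1 probe set with the plain suffix _at gave 0.66 and 0.45, so no direction can be given for ENO1.

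LDHA encodes the subunit of lactate dehydrogenase that favours lactate. Its 1 probe set was at 0.0048 with ERα17p and 0.10 with estradiol, against -0.46 with vehicle. LDHA was 0.47 higher with ERα17p (1.38-fold) and 0.56 higher with estradiol (1.48-fold), in both cases short of the call.

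In the ERα17p comparison 2 of the 10 genes were called higher and 1 lower, beside 9.56% of all genes called higher and 8.82% lower. In the estradiol comparison 2 were higher and 3 lower, beside 10.6% and 8.42% of all genes. At 2-fold the counts were 2 higher and 1 lower in both, beside 3.34% higher and 2.48% lower of all genes with ERα17p and 3.94% and 2.18% with estradiol. Each gene is 10% of the group, so these counts are no result about the group as a whole. The median difference over the 10 genes was -0.29 with ERα17p and -0.13 with estradiol, where the median of all genes was 0.0021 and 0.0022. The group held genes far above, far below and near 0. Of their 24 probe sets, 9 were higher and 4 lower in the ERα17p comparison (13.1% and 11% of all single-symbol probe sets), and 8 were higher and 6 lower in the estradiol comparison (14.1% and 11.4%). PGK1 supplied 5 of the higher probe sets in each.

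**Figure D2:**
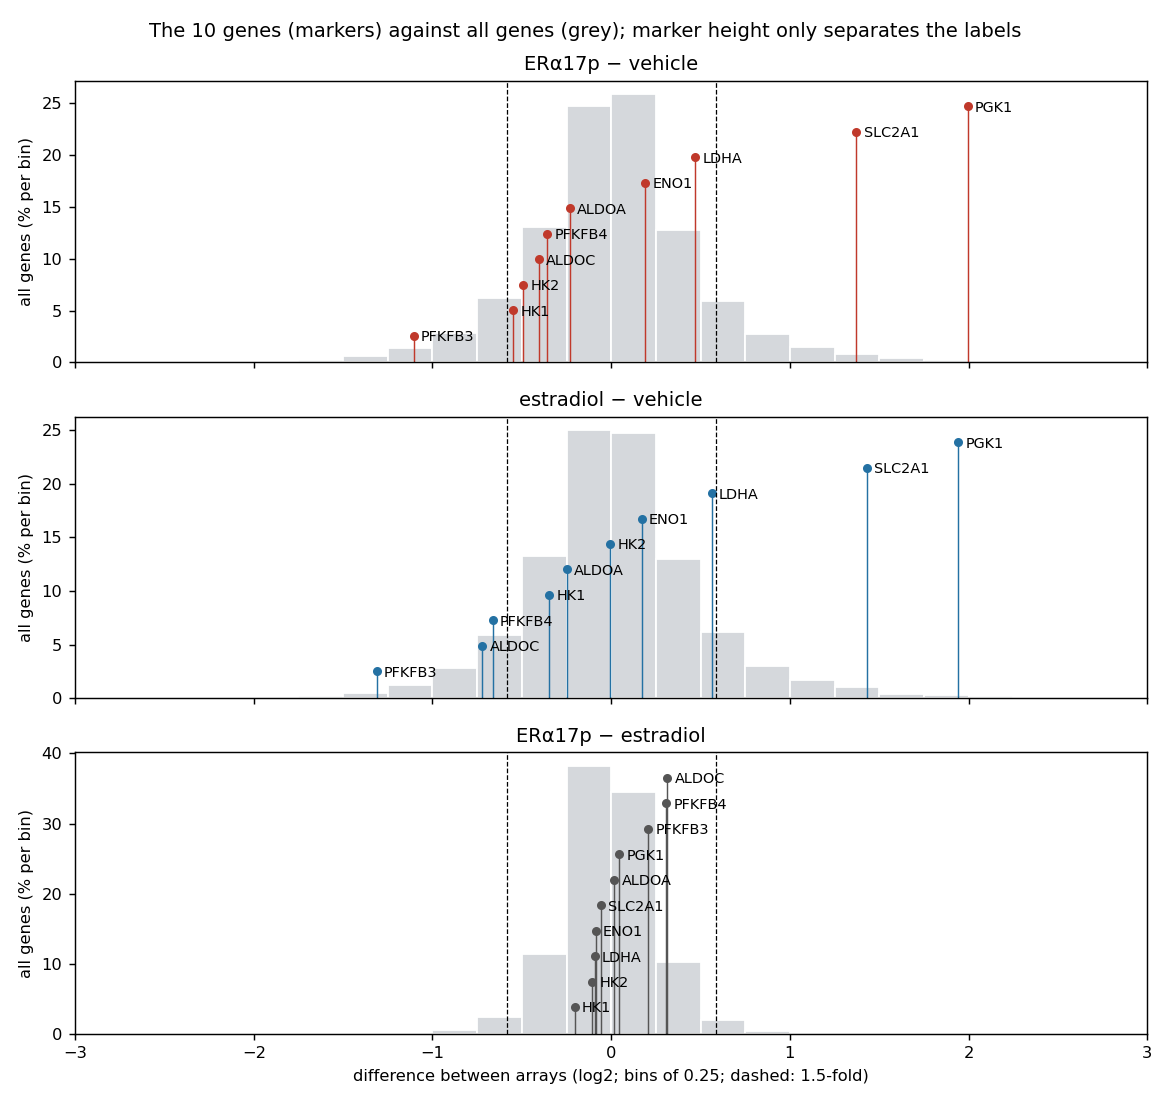
Differences of the 10 genes (coloured markers, log2, horizontal axis) over the distribution of all 19775 genes (grey bars, percent of genes per bin). Each difference is the median of the differences of the gene's probe sets. Panels show ERα17p minus vehicle, estradiol minus vehicle and ERα17p minus estradiol. PGK1 at 2.00 and 1.94 and SLC2A1 at 1.37 and 1.43 lie in the upper tail, PFKFB3 at -1.11 and -1.31 in the lower, and in the direct comparison all 10 lie between -0.20 and 0.31.

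Both comparisons use the same vehicle array, and that array also differed in added control RNAs. Spikes put in before labelling were 2.04 higher with ERα17p and 2.03 higher with estradiol than with vehicle (medians of 27 probe sets). For 18 probe sets of spikes put in before hybridisation the medians were -0.93 and -0.74, below vehicle. The SD of all probe sets was 0.241 with ERα17p and 0.260 with estradiol, against 0.494 with vehicle. Of the 10 genes, 9 had their value farthest from 0 on the vehicle array, as had 46.7% of all genes. The SD over the 10 gene medians was 0.116 with ERα17p and 0.203 with estradiol, against 0.836 with vehicle. Over the medians of all genes it was 0.195 and 0.212, against 0.402. The part of the vehicle array in these differences was not tested.

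Set directly against each other, without the vehicle array, the treated arrays differed little in these genes. None of the 10 was past 1.5-fold, beside 3.33% of all genes in either direction, and none of their 24 probe sets was, beside 6.88% of single-symbol probe sets. ALDOC (0.31), PFKFB4 (0.31) and PFKFB3 (0.21) were higher with ERα17p than with estradiol, and HK1 was at -0.20. PGK1 was at 0.05 and SLC2A1 at -0.06, and LDHA was at -0.09. The widest probe sets of PGK1 were 1558365_at at 0.56 and 217383_at at -0.45. The median over the 10 genes was -0.021, against -0.015 over all genes. The labelling spikes differed by 0.0029 here and hybridisation spikes by -0.15. The control probe sets for GAPDH had a median of -0.05, and those for ACTB, an actin, -0.31 (from -0.65 to -0.07). For ACTB, the probe set at the transcript's end minus that at its start was 0.31 with ERα17p and -0.27 with estradiol, against 0.11 with vehicle. For GAPDH this gap was 0.15 and 0.06, against 0.13. What lies behind the ACTB values was not tested. With no replicate, the small differences in the 10 genes do not show that the peptide and the hormone act alike on them.

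Other enzymes of the pathway were taken from a list of 24 genes, of which 21 had a single-symbol probe set. With ERα17p 1 was higher and 2 lower, and with estradiol 2 were higher and 2 lower, with medians of -0.10 and -0.03. Of all genes 9.56% were higher and 8.82% lower with ERα17p, and 10.6% and 8.42% with estradiol, so these counts lie near the background. PKM, pyruvate kinase, which acts after enolase and makes the last ATP of the pathway, was the farthest. It was at -0.23 with ERα17p and -0.02 with estradiol, against 1.66 with vehicle. Its difference was -1.88 with ERα17p (3.69-fold lower) and -1.68 with estradiol (3.20-fold lower), and both of its probe sets were at -1.43 or below. The 2 kinases that make ATP in glycolysis, PGK1 and PKM, therefore lay on opposite sides of vehicle. TIGAR, which lowers the activator of phosphofructokinase, was 1.04 and 1.10 higher on 1 probe set. HKDC1, a hexokinase-like gene, was at 0.29 with ERα17p and 0.87 with estradiol. PGAM2, the muscle mutase, was at 0.19 and -0.70 on 1 probe set. The 4 HKDC1 probe sets ranged from -0.19 to 1.12 with ERα17p and from 0.65 to 1.44 with estradiol. PFKP, a phosphofructokinase and the other gene called lower with ERα17p, was at -0.63 with ERα17p and -0.40 with estradiol, and is named after its values were seen. GAPDH, often used as a loading reference, was at -0.06 with ERα17p and -0.03 with estradiol, against 0.19 with vehicle, and its 6 probe sets lay between -0.35 and -0.19 in both comparisons.

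**Figure D3:**
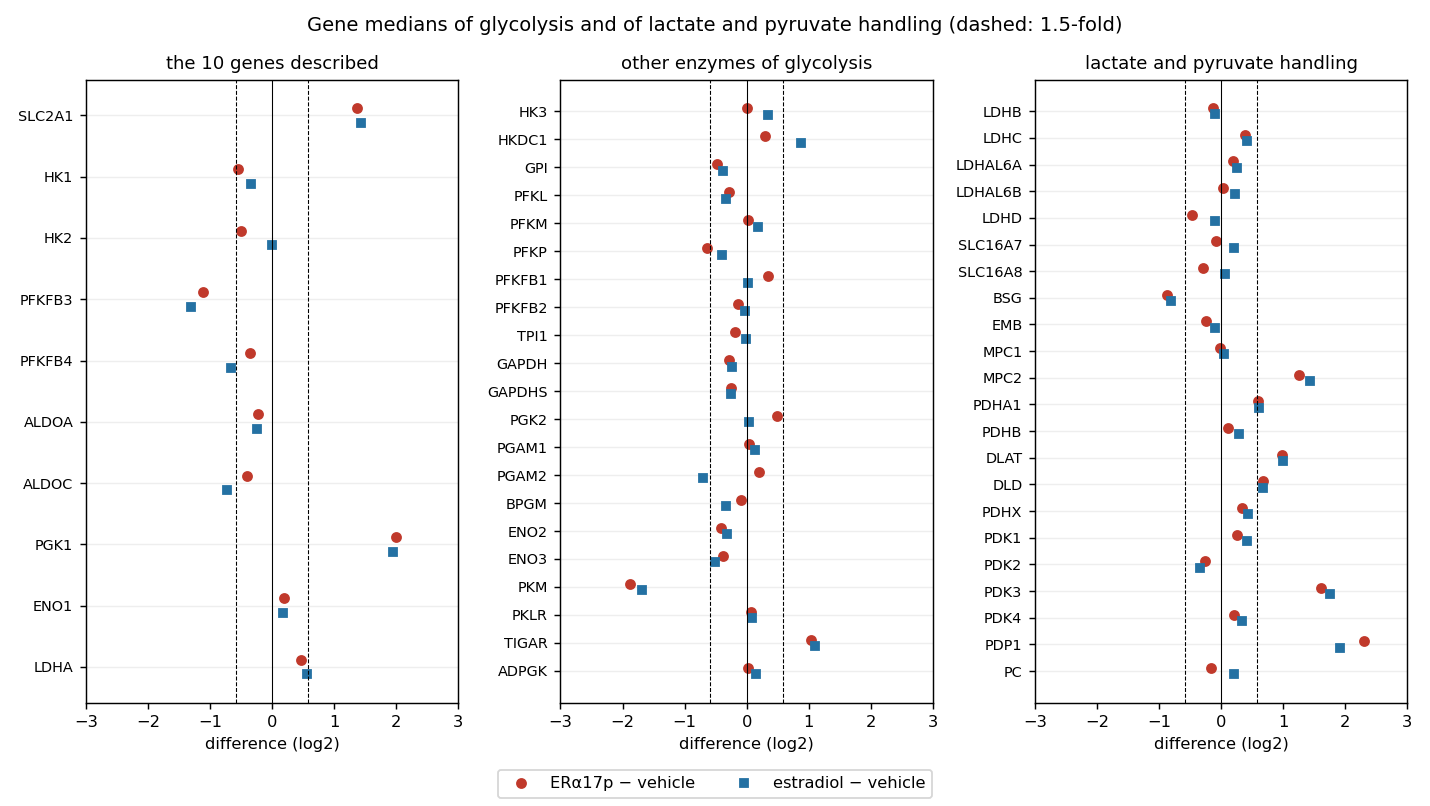
Gene medians of ERα17p minus vehicle (circles) and estradiol minus vehicle (squares), log2, for the 10 genes, for 21 other enzymes of glycolysis and for 22 genes of lactate and pyruvate handling. Dashed lines mark 1.5-fold. PGK1 (2.00 and 1.94) and PKM (-1.88 and -1.68) lie on opposite sides, and PDP1, PDK3 and MPC2 lie to the right.

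Genes that handle lactate and pyruvate beside LDHA had 6 of 22 measured members higher and 1 lower in each comparison with vehicle, beside 9.56% of all genes higher and 8.82% lower with ERα17p and 10.6% and 8.42% with estradiol. Their median was 0.15 with ERα17p and 0.28 with estradiol. The farthest were PDP1 and PDK3, which regulate pyruvate dehydrogenase, the complex that feeds pyruvate into the mitochondrial cycle. PDP1, the phosphatase that activates it, was at 0.54 with ERα17p and 0.16 with estradiol, against -1.76 with vehicle, a difference of 2.30 and 1.92. PDK3, a kinase that inactivates it, was 1.60 and 1.76 higher, with all 5 probe sets at 0.78 or above in both comparisons. PDK1, PDK2 and PDK4, kinases of the same kind named after their values were seen, were not called, at 0.26, -0.25 and 0.20 with ERα17p and at 0.42, -0.34 and 0.34 with estradiol. MPC2, part of the mitochondrial pyruvate carrier, was 1.26 and 1.43 higher, and DLAT, a subunit of the dehydrogenase itself, 0.973 and 0.996 higher. BSG, the partner that brings lactate transporters to the membrane, was at -0.87 and -0.80 on 1 probe set and is named here after its values were seen.

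Another list held transporters of glucose and fructose, namely other SLC2A genes and SLC5A1 and SLC5A2. Of its 13 measured genes, 3 were higher and 1 lower with ERα17p, beside 9.56% and 8.82% of all genes. With estradiol 1 was higher and 1 lower, beside 10.6% and 8.42% of all genes. SLC2A10 was at 0.23 with ERα17p and 0.71 with estradiol, against -1.20 with vehicle, and so 1.43 and 1.92 higher on 1 probe set. SLC2A6, another of the SLC2A genes, was at -0.93 and -0.97 relative to vehicle on 1 probe set. SLC2A3, a transporter with high affinity for glucose, had a median of 0.69 and 0.50, but its 3 probe sets were at 0.69, 0.70 and -0.96 with ERα17p. SLC2A2, the transporter of liver and pancreatic islets, was at 0.59 with ERα17p and -0.07 with estradiol on 1 probe set.

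Genes that regulate glycolytic transcription had 6 of 26 measured members higher and 1 lower in each comparison, with medians of 0.03 and -0.00023, beside the same background shares. HIF1A, the oxygen-sensitive subunit of the hypoxia-inducible factor, was at -0.01 with ERα17p and 0.03 with estradiol, against -0.18 with vehicle, and so 0.17 and 0.21 higher on 1 probe set. MYC was 0.37 and 0.46 higher, also on 1 probe set. Neither transcript was called. The single gene called lower was HIF1AN, an inhibitor of the factor, with ERα17p (-0.67) and VHL, which directs its destruction, with estradiol (-0.88), both named after their values were seen. EGLN1 and EGLN3, hydroxylases that mark the factor for destruction and are themselves among its known targets, were 1.08 and 0.63 higher with ERα17p, and 0.90 and 0.89 higher with estradiol. The 4 probe sets of EGLN1 ranged from 0.20 to 1.42 with ERα17p and from -0.16 to 1.38 with estradiol. ARRDC4, a gene known to respond to glucose, was 1.44 and 1.28 higher on 1 probe set. ARNT2, a relative of the factor's partner subunit, was 0.91 and 1.38 higher, also on 1 probe set.

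**Figure D4:**
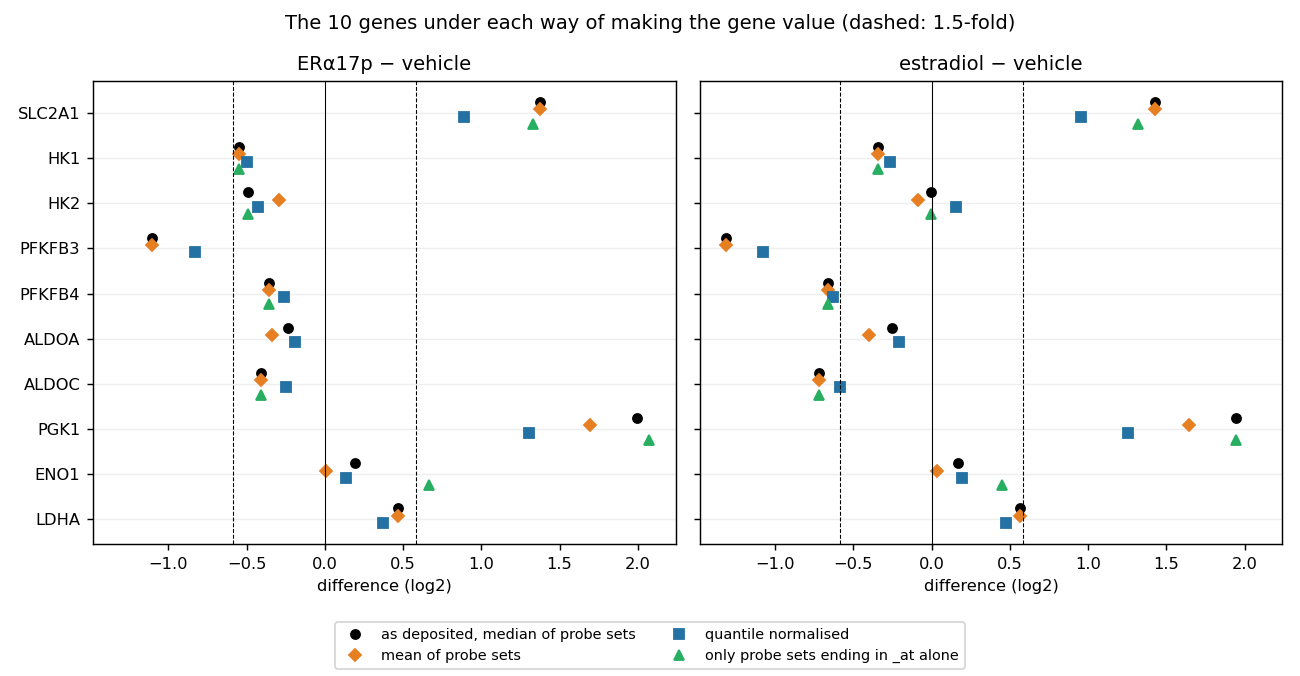
Differences from vehicle (log2, horizontal axis) of the 10 genes with ERα17p (left) and estradiol (right), as deposited with the median of probe sets (circles), with their mean (diamonds), after quantile normalisation (squares) and from probe sets with the plain suffix _at (triangles, missing for 3 genes). PGK1 and SLC2A1 stay more than 1.5-fold higher than vehicle. PFKFB3 stays more than 1.5-fold lower in the settings that measure it, and ENO1 ranges from 0.01 to 0.66 with ERα17p.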

How the data were processed

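Per the submitters' processing notes, the arrays were processed with RMA, which corrects background, normalises by quantiles and summarises probes, with no version given. The deposited values were taken as log2, the scale RMA gives. They had also been centred per probe set, a step not described in the sources used here. The median of each array was 0, and between 7.08% and 8.54% of probe sets were exactly 0. Symbols came from the platform's annotation, in which 41097 probe sets had 1 symbol, 1801 several and 11777 were unnamed here. None with several symbols held any of the 10 genes.

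Differences between arrays were taken per probe set, and their median over probe sets is the gene's difference (Python 3.11.15, pandas 2.3.3). The calculation was tested on simulated data with the same spread on all 3 arrays, unlike the real ones. That test checks the arithmetic and not the error of these arrays. The 10 genes and the pathway lists were chosen with earlier results of these data known. All 10 genes were named with all their probe sets. The rule for each other list was to name at most 4, the farthest among those called against vehicle, and GAPDH, PKM, HIF1A and MYC always. Genes named beyond this rule are marked where they appear as named after their values were seen. Alternatives were the mean of probe sets, quantile normalisation, probe sets with the plain suffix _at, a 2-fold call and leaving out the farthest gene. No genome coordinates of probes were used.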

Additional observations from a re-analysis of the deposited data

How the results depend on the processing

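No paired analysis was possible because there was 1 array per group, and for the same reason no replicate could be left out. Each gene's difference was recomputed in 81 cases and kept its side of 1.5-fold in 80. The exception was ENO1 with ERα17p, at 0.66 from its plain _at probe set. Many of these cases could not move. For a gene with 1 or 2 probe sets the mean equals the median. All probe sets of HK1, HK2, ALDOC and PFKFB4 have the plain suffix, so that setting leaves their values unchanged. The count of cases that kept their side therefore overstates how firm the values are. The count of genes called with estradiol was 3 at 2-fold, and 5 at 1.5-fold. With ERα17p 3 genes were called, 2 higher and 1 lower. Plain _at probe sets, which measure 7 genes, gave 3 higher and 0 lower, with ENO1 added and PFKFB3 not measured. The median over the genes with estradiol was -0.025 after quantile normalisation, -0.0066 from plain _at probe sets, which measure 7 of the 10 genes, and -0.25 without PGK1. In the direct comparison the median was 0.0100 with the mean of probe sets and 0.049 from plain _at probe sets, so its sign is not settled. The cause was not tested. Signal over background cannot be read from centred values, so whether a gene was detected at all is unknown.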

Other observations

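Of 7 measured genes of the pentose phosphate pathway, which makes NADPH and ribose from glucose phosphate, 0 were higher and 1 was lower in each comparison, beside 9.56% of all genes higher and 8.82% lower with ERα17p and 10.6% and 8.42% with estradiol. That gene, PGLS, which acts early in the pathway, was at -0.19 with ERα17p and -0.32 with estradiol, against 0.57 with vehicle, with differences of -0.73 and -0.87. All 4 of its probe sets were below vehicle, between -1.21 and -0.44. Of 19 genes of gluconeogenesis and glycogen, 1 was higher and 0 lower in each comparison, beside the same background shares. With ERα17p this was GBE1, the glycogen branching enzyme, at 0.63, and with estradiol it was PCK2, the mitochondrial enzyme that makes phosphoenolpyruvate, at 0.65. PCK2 was at 0.09 with ERα17p and GBE1 at 0.53 with estradiol, and each had 1 probe set.

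The markers listed for mesenchymal-like breast lines, to which MDA-MB-231 belongs, had 2 of 8 higher and 0 lower with ERα17p and 1 higher and 0 lower with estradiol. Luminal markers had 0 of 8 higher and 1 lower with ERα17p, and 1 higher and 1 lower with estradiol. Of 5 measured blood cell markers 0 were called with ERα17p and 1 was higher with estradiol, CD14 at 0.75, named after its value was seen. Whether such cells were present cannot be read from centred values. Of all genes, 9.56% were higher and 8.82% lower with ERα17p, and 10.6% and 8.42% with estradiol. With lists this short, the counts are no result about the markers.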
